A study of Mus musculus with 2 samples.

Results

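The genes Mir103-1, Mir103-2, Mir107, Mir33 and Mir210 were chosen by name, not by level: 3 miRNA genes in introns of the pantothenate kinase genes, 1 in an intron of the sterol regulator Srebf2, and the miRNA gene best known from hypoxia. They are 5 of the 2202 miRNA genes in the tables. Their levels were measured by microRNA-seq, which sequences short RNA inserts (under 30 nt, per the labels), in total RNA from whole hearts of 10-day-old female B6CASTF1/J mice, an F1 hybrid strain with 1 C57BL/6J and 1 CAST/EiJ genome. The only group was 2 hearts, replicate 1 and replicate 2, each its own biosample with 1 library. No treatment, second tissue or second age is given, so the measurements describe levels and how far the 2 hearts differed, not a response. All 5 genes matched an M21 gene ID.

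Pantothenate kinases carry out the first committed step of coenzyme A synthesis, and miR-103 and miR-107, made from their introns, are known in mouse liver and fat as regulators of insulin sensitivity. The Srebf2 gene encodes SREBP-2, the transcription factor that raises cholesterol synthesis, and miR-33 from its intron represses Abca1, the transporter that exports cholesterol from cells. MiR-210 is transcribed under hypoxia-inducible factor and represses iron-sulphur cluster assembly proteins that mitochondrial respiration needs. A miRNA recognises its targets mainly through its seed, bases 2 to 8 from the 5′ end.

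The mature forms are shown because the near-identity of the miR-103 and miR-107 forms bears on what could be counted. They come from RefSeq (GRCm38.p6) and are written 5′ to 3′ with the seed in capitals.
miR-103-3p, from both Mir103-1 and Mir103-2: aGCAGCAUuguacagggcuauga
miR-107-3p: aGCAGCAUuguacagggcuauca
miR-103-1-5p: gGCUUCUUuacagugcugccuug
miR-103-2-5p: aGCUUCUUuacagugcugccuug
miR-107-5p: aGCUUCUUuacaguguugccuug
miR-33-5p: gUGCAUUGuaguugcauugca
miR-33-3p: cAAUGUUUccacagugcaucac
miR-210-3p: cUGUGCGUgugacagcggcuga
miR-210-5p: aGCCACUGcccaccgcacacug

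Counting positions from 1 at the 5′ end, miR-103-3p and miR-107-3p (23 nt each) differed by a single substitution, G22C, outside the seed. The 5p forms of the Mir103 copies differed by G1A, and miR-103-2-5p and miR-107-5p by C16U. The 3p seed GCAGCAU was held by no mature form in the RefSeq table other than miR-103-3p and miR-107-3p, and the 5p seed GCUUCUU by the 3 forms above alone. Each of the 4 seeds of miR-33 and miR-210 occurred in 1 mature form only.

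The Pank-hosted hairpins shared more than the mature forms. In the lines below capitals mark the 5p and 3p arms.
Mir103-1: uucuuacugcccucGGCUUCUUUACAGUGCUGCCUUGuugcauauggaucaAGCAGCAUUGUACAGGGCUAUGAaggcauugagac
Mir103-2: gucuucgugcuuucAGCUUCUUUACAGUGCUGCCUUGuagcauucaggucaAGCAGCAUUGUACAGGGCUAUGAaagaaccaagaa
Mir107: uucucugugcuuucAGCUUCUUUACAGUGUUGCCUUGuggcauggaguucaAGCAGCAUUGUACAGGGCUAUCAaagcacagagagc

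The hairpins of Mir103-1 and Mir103-2 were identical at 80.2% of 86 aligned bases, those of Mir103-2 and Mir107 at 83.9% of 87 aligned columns, and those of Mir103-1 and Mir107 at 80.9% of 89. In all 3 the arms occupied bases 15 to 37 and 52 to 74, separated by a loop of 14 nt. The longest run shared by Mir103-1 and Mir103-2 was 27 nt, and each shared 24 nt with Mir107. Mir33 and Mir210 shared no run over 8 nt with the other members.

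Position repeated the same likeness. On mm10, Mir103-1 lies on the plus strand of chromosome 11 (35782396 to 35782481) in intron 5 of Pank3, 688 bp after exon 5. Mir103-2 lies on the plus strand of chromosome 2 (131288052 to 131288137) in intron 5 of Pank2, 454 bp after the exon. Mir107 lies on the minus strand of chromosome 19 (34820687 to 34820773) in intron 5 of Pank1, 326 bp after the exon. The intron numbers refer to the principal M21 transcript of each host, which has 7 exons in every case. Mir33 lies on the plus strand of chromosome 15 (82198122 to 82198190) in intron 16 of the 19-exon transcript Srebf2-201, 335 bp after the exon. These 4 genes have the strand of their host and overlap none of its annotated exons. Mir210 (chromosome 7, 141221384 to 141221493, minus strand) overlaps no other M21 gene, and the nearest, Rassf7, lies 2726 bp away on the opposite strand.

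The tables assign only reads placed at a single position. Those with several positions made up 38.9% of the reads of replicate 1 and 38.0% of those of replicate 2 and stand under no gene. The whole 23 nt sequence of miR-103-3p occurs in 2 miRNA genes, so a read of exactly that sequence could be assigned to neither. The first 21 bases of miR-107-3p occur in 3, and its first 22 bases in Mir107 alone. The first 16 bases of each 5p form, and of the miR-33 and miR-210 forms, already occur in a single miRNA gene. Of the 22-nt windows along each hairpin, 8 of 65 in Mir103-1, 10 of 65 in Mir103-2 and 5 of 66 in Mir107 also occurred in another miRNA gene, against 0 of 48 in Mir33 and 0 of 89 in Mir210. Of all 2202 genes, 49.1% held at least 1 such window, and of the 346 genes with 10 or more counts in both hearts 23.4% did. The levels of Mir103-1 and Mir103-2 are thus levels of reads that tell the copies apart, not of miR-103, and how much of the low counts this accounts for was not tested. The search covered miRNA genes only, since no genome sequence was used.

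**Figure D1:**
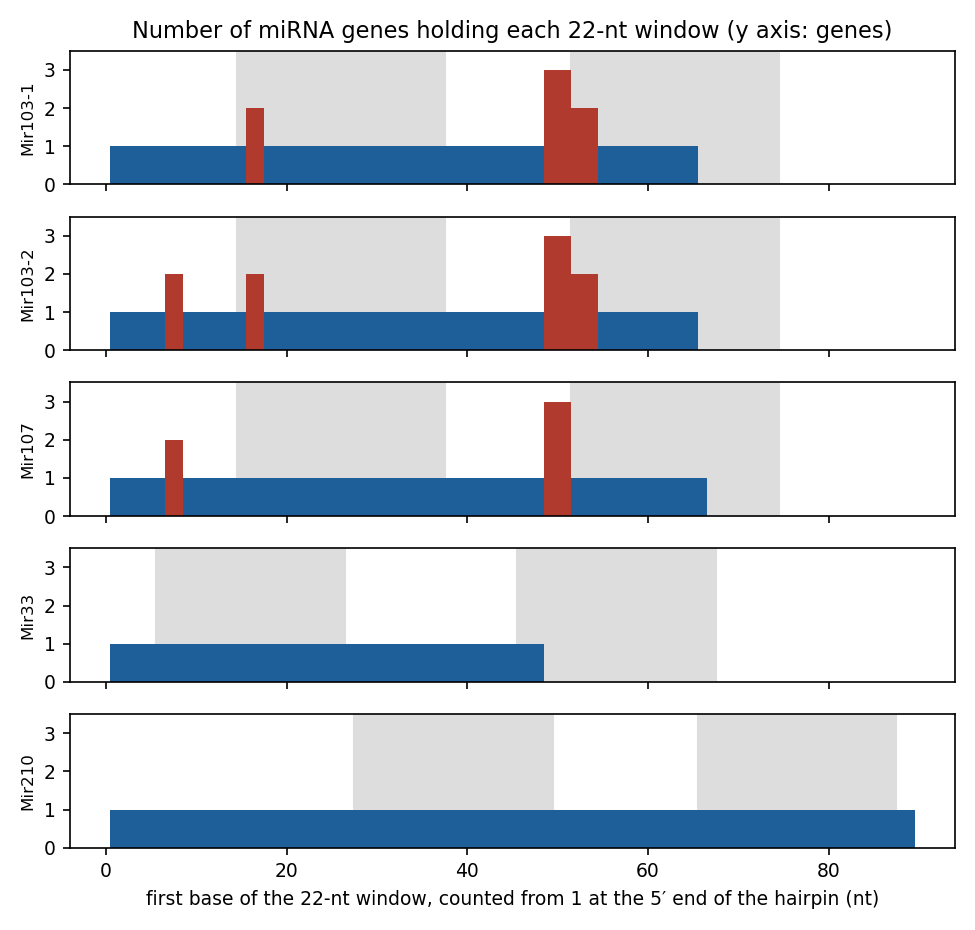
Number of miRNA genes (y axis) that hold each 22-nt window of the 5 hairpins, by the first base of the window (x axis, nt from the 5′ end). Blue bars are windows found in 1 gene, red bars windows found in 2 or 3, and grey bands the mature arms. The window that starts at the first base of the 3p arm (base 52) occurs in 2 genes for Mir103-1 and Mir103-2 and in 1 for Mir107.

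Reads on named miRNA genes numbered 4260561 in replicate 1 and 4583025 in replicate 2, of 10782737 and 10201509 reads in all. The 3 cardiomyocyte genes Mir208a, Mir208b and Mir499 summed to 9644 CPM in replicate 1 and 6536 CPM in replicate 2, and each was present in both. Of the other marker lists, the endothelial Mir126a stood at 86322 and 137860 CPM, smooth muscle genes summed to 53735 and 35952 CPM, fibroblast genes to 4645 and 5164, leukocyte genes to 2295 and 2447, and erythroid genes to 268 and 749.5. The fibroblast sum was nearly all Mir214 (4614 and 5149 CPM). All mature forms found in Mir199a-1 and Mir199a-2 occur in more than 1 miRNA gene, so their full-length reads are not counted. The liver gene Mir122 stood at 76.3 and 141 CPM, the skeletal muscle gene Mir206 at 19.0 and 15.3, the pancreatic Mir375 at 10.3 and 4.80. The 4 neuronal genes found, Mir9-1, Mir9-2 and both Mir124a genes, were at 0 in both, which is not read as absence. Both mature forms of the Mir9 genes occur in 3 miRNA genes, so their full-length reads are not counted. For the Mir124a genes no mature form was matched, so shared forms could not be checked. The same holds for Mir143, Mir145a and Mir122. CPM scale the counts on named miRNA genes to a common total. They were not divided by gene length, because a read of this assay covers a whole small RNA.

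Mir107 had the most uniquely placed reads of the 5. It had 17204 counts in replicate 1, or 4038 CPM (exact 95% interval 3978 to 4099), and 9298 counts in replicate 2, or 2029 CPM (1988 to 2070). The level in replicate 1 was the higher, and the intervals did not overlap. The mean was 3033 ± 1421 CPM (SD, n = 2), which placed the gene at rank 41 of 2202.

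Mir210 had 2482 counts in replicate 1 (583 CPM, exact 95% interval 560 to 606) and 2706 in replicate 2 (590 CPM, 568 to 613). The hearts lay close together, at 587 ± 5.58 CPM (SD, n = 2) and rank 88. The median over the 346 detected genes was 85.1 CPM, and 74.6% of them stood below Mir210.

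Both Mir103 copies were counted far below Mir107. Mir103-2 had 97 counts (22.8 CPM) in replicate 1 and 89 counts (19.4 CPM) in replicate 2, a mean of 21.1 ± 2.37 CPM (SD, n = 2) and rank 236. Mir103-1 had 24 counts (5.63 CPM) in replicate 1 and 6 counts (1.31 CPM) in replicate 2, a mean of 3.47 ± 3.06 CPM and rank 335. With 6 counts in 1 heart, Mir103-1 missed the detection minimum of 10 counts in both, so 4 of the 5 genes were detected, against 15.7% of all genes.

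Mir33, from the sterol pathway, had few counts as well. It had 22 counts in replicate 1 (5.16 CPM, exact 95% interval 3.24 to 7.82) and 33 in replicate 2 (7.20 CPM, 4.96 to 10.1), a mean of 6.18 ± 1.44 CPM (SD, n = 2) and rank 304. It was above the limit that a count of 0 allows (3 counts, or 0.704 CPM in replicate 1 and 0.655 in replicate 2). By uniquely placed reads the order was Mir107, Mir210, Mir103-2, Mir33 and Mir103-1. The Mir103 copies stand in it without the full-length reads of miR-103-3p, so it is not an order of the mature forms. The last pair exchanged places between the hearts. Mir103-1 was slightly above Mir33 in replicate 1, with overlapping intervals (3.61 to 8.38 CPM for Mir103-1), and below it in replicate 2. The first 3 kept their order in both. None of the 5 had a read on the opposite strand, and their unstranded counts equalled the gene-strand counts in both libraries.

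**Figure D2:**
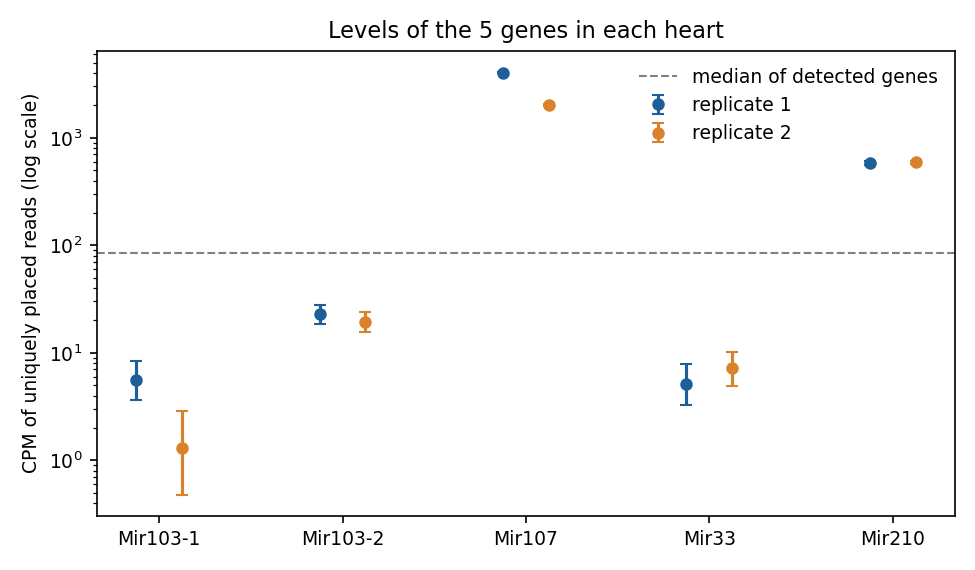
CPM of uniquely placed reads (y axis, log scale) for the 5 genes in replicate 1 (blue) and replicate 2 (orange), with exact 95% intervals that cover counting error only. The dashed line is the median of the 346 detected genes, 85.1 CPM. Mir107 and Mir210 lie above it in both hearts, and the other 3 below it.

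Ratios within a library do not depend on its scaling. The count of Mir107 was 177 times that of Mir103-2 in replicate 1, with an exact 95% interval of 145 to 219. For replicate 2 the figure was 104 times (84.8 to 130). Its excess over Mir103-1 was 717-fold (482 to 1119) and 1550-fold (712 to 4224) in replicates 1 and 2. Of the counts that were assigned within the family, Mir107 took 99.3% of 17325 counts in replicate 1 and 98.99% of 9393 in replicate 2. Mir103-2 exceeded Mir103-1 4.04-fold (2.56 to 6.61) in replicate 1 and 14.8-fold (6.55 to 41.5) in replicate 2, so the Pank2 copy had more uniquely placed reads than the Pank3 copy in both hearts. All of these ratios carry the limit on shared sequence given above, and how well each sequence ligates enters them too. How reads of miR-103-3p and miR-107-3p, which differ at base 22 alone, were divided depends on mismatch settings that the sources used here do not give, so the Mir107 count is uncertain as well, by an amount that was not tested.

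Across pathways, Mir210 stood below Mir107 in both hearts, 0.144-fold (0.138 to 0.150) in replicate 1 and 0.291-fold (0.279 to 0.304) in replicate 2. It exceeded Mir33 113-fold (74.3 to 180) and 82.0-fold (58.2 to 119). Mir107 exceeded Mir33 782-fold (516 to 1248) in replicate 1 and 282-fold (200.5 to 410) in replicate 2. These differences between genes were larger than those between the hearts.

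The difference between the hearts was tested for every gene whose counts in both hearts summed to at least 20, by an exact two-sided binomial test given TMM-scaled library sizes, with Benjamini-Hochberg adjustment over all 375 genes tested. The test compares these 2 libraries, not conditions, and counts no animal-to-animal variation. Of the 375 genes, 55.2% passed it, 29.1% higher in replicate 1 and 26.1% higher in replicate 2. All 5 members were tested and 2 passed, Mir107 and Mir103-1, both higher in replicate 1. With DESeq2 size factors 3 members passed, so the share of 5 genes is not read as differing from that of all genes.

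Mir107 was 1.90-fold higher in replicate 1 (log2 ratio 0.93, exact 95% interval 0.89 to 0.96, adjusted p below 1e-300). Of the 156 genes whose summed count reached 1000, 20 (Mir107 among them) had a ratio at least that far from 0 on the log2 scale. Mir103-1 had a log2 ratio of 1.95 (0.71 to 3.62; exact binomial test, adjusted p = 0.0017), from 24 and 6 counts. Mir103-2, with a log2 ratio of 0.16 (-0.27 to 0.59, adjusted p = 0.584), did not pass. Whether the ratios of these 3 genes differ from each other was not tested as such, but the within-library intervals of Mir107 over Mir103-2 given above did not overlap between the hearts.

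The cardiomyocyte markers were higher in replicate 1, as was Mir107. Their log2 ratios of replicate 1 over replicate 2 were 1.05 for Mir208a, 0.33 for Mir499 and 0.19 for Mir208b. All 3 passed the test, beside 29.1% of all genes tested that passed in that direction. The ratios of Mir499 and Mir208b lay below 0.37, the median absolute log2 ratio of all genes tested. Of the smooth muscle markers, Mir143 also passed as higher in replicate 1 (0.54), while Mir145a had a ratio of 0.02 and did not pass. Among the fibroblast markers, Mir214, nearly all of their sum, was lower in replicate 1 (4614 CPM) than in replicate 2 (5149 CPM). Mir199a-2 passed as higher in replicate 1 (0.82), from 121 and 70 counts that lack its full-length reads. The endothelial Mir126a passed in the other direction (-0.74), and the summed erythroid markers stood at 268 CPM in replicate 1 and 749.5 CPM in replicate 2. The part of cell makeup in the Mir107 difference was not tested. In whole tissue, fewer cells of a type and less RNA per cell cannot be told apart.

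Mir210 did not pass the test. Its log2 ratio was -0.09 (exact 95% interval -0.17 to -0.01, adjusted p = 0.0586), or 0.942-fold with an interval from 0.892 to 0.995. With DESeq2 size factors it was -0.12 and passed (exact binomial test, adjusted p = 0.0045). Of the 156 well-counted genes, 23 including Mir210 lay this close to 0 or closer. Mir33 had a log2 ratio of -0.54 (-1.39 to 0.28, adjusted p = 0.257), and its 22 and 33 counts could not show a difference of that size.

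**Figure D3:**
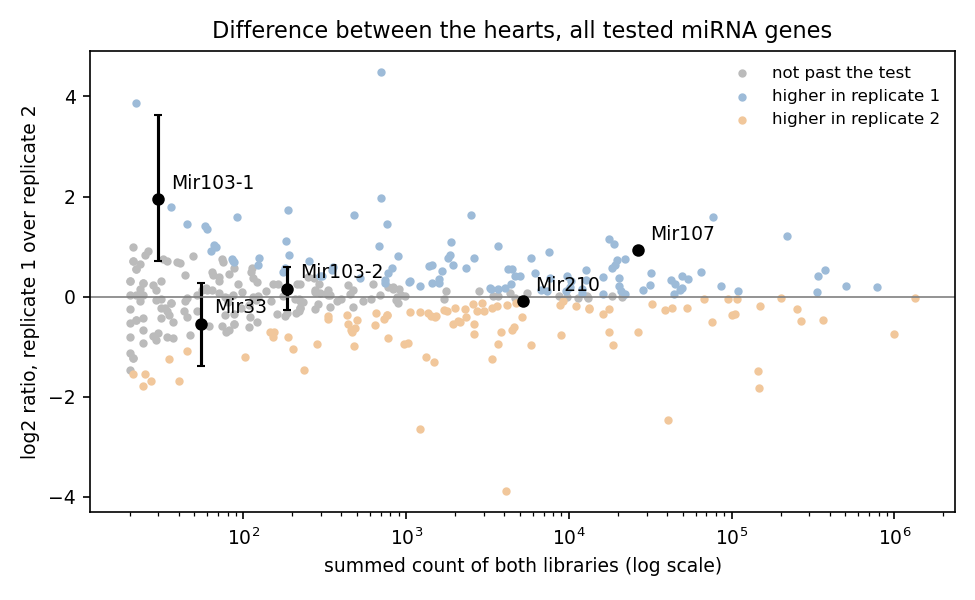
Log2 ratio of replicate 1 over replicate 2 (y axis) against the summed count of both libraries (x axis, log scale) for the 375 tested genes, coloured by the test. The 5 genes are in black with exact 95% intervals. Mir107 and Mir103-1 lie above 0, and the intervals of Mir103-2 and Mir33 include 0.

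The miR-15/miR-107 group joins miR-103 and miR-107 to miRNAs that hold AGCAGC near their 5′ end and are known to share some targets of cell-cycle and metabolic control. Of the 1679 mature forms in the RefSeq table, 13 (0.774%) hold AGCAGC within their first 8 bases, miR-103-3p and miR-107-3p among them. The forms below show that the motif starts at base 2 in the miR-15 branch and at base 1 in miR-107, so that the seeds are offset by a base. Capitals mark the motif.
miR-107-3p: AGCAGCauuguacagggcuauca
miR-322-5p: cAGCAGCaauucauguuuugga
miR-195a-5p: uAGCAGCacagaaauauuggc
miR-15b-5p: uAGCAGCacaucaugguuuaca
miR-15a-5p: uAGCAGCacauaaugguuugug

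Levels in this group lack the full-length reads of the mature form shared by the Mir16 genes and of that shared by the Mir103 genes. The place of Mir107 can depend on this limit, and its rank is not an order of the mature forms. By mean level of uniquely placed reads, Mir107 ranked below Mir322 and Mir195a and just above Mir15b among the 13 genes listed for this group. That list follows the family names and not the motif: it holds Mir497b, which has no such form, and leaves out the forms miR-6342, miR-6353 and miR-6419, which have one. Mir322, from an X-linked cluster, stood at 13196 CPM in replicate 1 and 11656 CPM in replicate 2, and Mir107 was at 0.306-fold (0.301 to 0.311) and 0.174-fold (0.170 to 0.178) of its count. Mir195a stood at 1424 CPM in replicate 1 and 7527 CPM in replicate 2, so its order against Mir107 turned round. Mir107 exceeded it 2.84-fold (2.75 to 2.92) in replicate 1, and in replicate 2 was at 0.270-fold (0.263 to 0.276). Mir15b stood at 2315 CPM in replicate 1 and 3609 CPM in replicate 2, and Mir15a at 1457 and 2735.

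Within the group, genes differed between the hearts in both directions. Of 11 genes tested, 4 were higher in replicate 1 (Mir107, Mir103-1, Mir322 and Mir503), 6 were higher in replicate 2 (Mir15a, Mir15b, Mir16-1, Mir16-2, Mir195a and Mir497) and 1, Mir103-2, did not pass, beside 29.1% higher in replicate 1 and 26.1% higher in replicate 2 among all genes tested. The log2 ratios of the 6 ran from -2.47 for Mir195a to -0.17 for Mir16-1, and those of Mir503 and Mir322 were 0.26 and 0.11. The median over the 11 was -0.17, against 0.02 over all 375 genes tested. The group as a whole took 2.49% of the counts in replicate 1 and 3.05% in replicate 2. These shares lack the full-length reads of miR-16-5p, which occurs in both Mir16 genes, as they lack those of miR-103-3p.

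**Figure D4:**
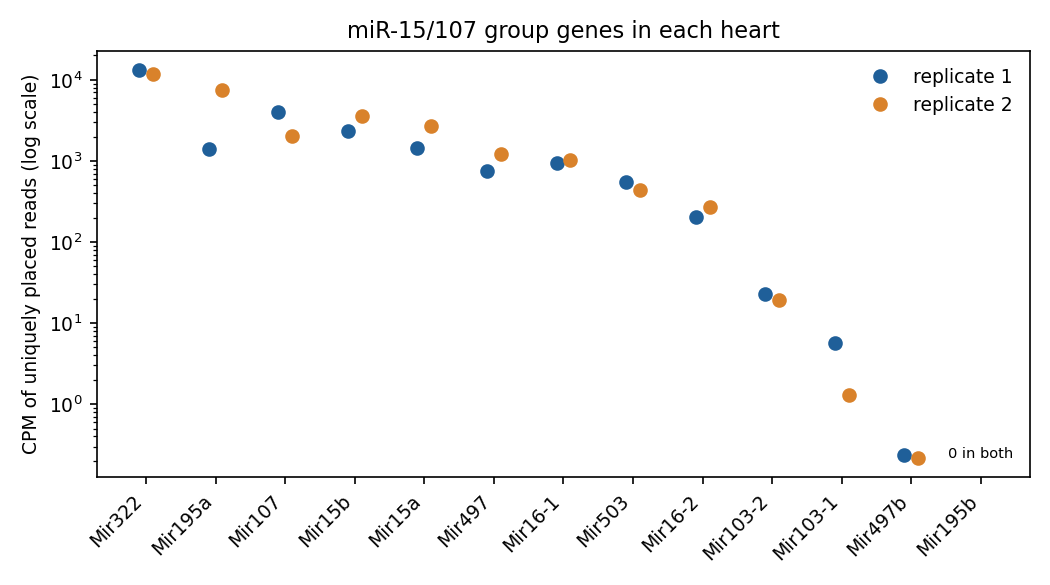
CPM of uniquely placed reads (y axis, log scale) of the 13 miR-15/miR-107 group genes in replicate 1 (blue) and replicate 2 (orange), ordered by mean level. Mir107 lies higher in replicate 1, while Mir195a, Mir15b and Mir15a lie higher in replicate 2. Mir195b had 0 counts in both hearts and is marked so. The Mir16 and Mir103 genes are shown without the full-length reads of the mature forms shared between their copies.

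Mir33 was set beside 15 other genes linked to cholesterol and lipid handling. Together the 16 held 16.4% ± 0.221 of the counts (SD, n = 2). Their median was 243 CPM, and 15 were detected. Mature forms shared between genes were not examined for every gene of this list. Without regard to strand Mir378a has 0 counts, and the share was 1.71%. Nearly all of the share came from Mir378a, in an intron of the mitochondrial coactivator gene Ppargc1b, at 152441 ± 2742 CPM. Mir33 was at 3.34e-05-fold of Mir378a in replicate 1 (2.10e-05 to 5.06e-05) and 4.78e-05-fold in replicate 2 (3.29e-05 to 6.72e-05). Mir27b stood at 6008 ± 446 CPM and Mir145a at 2069 ± 85.8 CPM. Of these 16 genes Mir33 was the lowest apart from Mir758, which had 5 counts in replicate 1 and 1 in replicate 2. Of 15 tested, 1 was higher in replicate 1 and 7 were higher in replicate 2, beside 29.1% and 26.1% of all genes tested in those directions. The other 7, Mir33 among them, did not pass. The share past the test was near the 55.2% of all genes tested, but most of those that passed were higher in replicate 2. The median log2 ratio of the 15 was -0.12.

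Mir210 was set beside 16 other genes linked to hypoxia, of which Mir107 is also a member. Together the 17 held 10.2% ± 0.473 of the counts, and Mir210, at 587 CPM, was the median gene of the list. These values lack the full-length reads of the mature forms in Mir199a-1 and Mir199a-2, which occur in more than 1 miRNA gene. The place of Mir210 can depend on this limit, and shared forms were not examined for every gene of the list. Mir23b (40902 ± 7853 CPM), Mir23a (29996 ± 6063) and Mir322 (12426 ± 1089) led it, and Mir21a and Mir34a (2506 ± 152) were also above 2000 CPM. Mir21a, known from fibroblasts and cardiac remodelling, stood at 13476 CPM in replicate 1 and 4247 CPM in replicate 2, and Mir210 was at 0.0432-fold (0.0415 to 0.0450) and 0.139-fold (0.133 to 0.145) of its count. Most of that change in ratio lay in Mir21a, whose log2 ratio between the hearts was 1.60. Of 16 genes tested, 8 were higher in replicate 1, 5 were higher in replicate 2 and 3 did not pass, among them Mir210, beside 29.1% and 26.1% of all genes tested in those directions. The median log2 ratio was 0.12.

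The 15 genes linked to insulin and glucose, which hold the 3 Pank-hosted genes, held 6.36% ± 1.26 of the counts. Their median was 12.9 CPM, and 10 were detected. These values lack the full-length reads of miR-103-3p, and shared mature forms were not examined for every gene of the list. Mir143, a smooth muscle gene (42774 ± 12489 CPM), and Mir26b (16962 ± 1006 CPM) made up most of the share. Mir107 was the highest of the rest. Of 13 tested, 4 were higher in replicate 1, 4 were higher in replicate 2 and 5 did not pass, near the 55.2% past the test among all genes, and the median log2 ratio was 0.16. A list of 9 genes that lie within the 3 Pank genes, Srebf2, Ppargc1b, 3 myosin genes and the endothelial gene Egfl7 (host of Mir126a) held 27.6% ± 3.01 of the counts. Without regard to strand, where Mir126a has 10 counts in replicate 1 and 48 in replicate 2 and Mir378a has 0, it held 1.57%. Their median, 2162 CPM, was that of Mir208a in the alpha myosin gene Myh6. Of these 9, Mir378a, Mir126a (112091 ± 36443 CPM) and Mir499 (4784 ± 931) stood above Mir107, and Mir208b (1144 ± 143), Mir103-2, Mir33 and Mir103-1 below Mir208a. Of the 9 tested, 5 were higher in replicate 1, 2 were higher in replicate 2 and 2 did not pass, beside 29.1% and 26.1% of all genes tested in those directions.

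By level over the 2 hearts, the genes nearest to Mir107 were Mir127 and Mir674 above it (3591 ± 531 and 3256 ± 316 CPM) and Mir15b and Mir379 below it (2962 ± 914 and 2515 ± 978 CPM). Of these Mir379 was the most alike, with a mean absolute difference of 0.24 in log2 CPM over the 2 libraries and a log2 ratio between the hearts of 0.75. Nearest to Mir210 were Mir29a and Mir150 above and Mir467d and Mir487b below, and Mir150, a lymphocyte gene, differed from it by 0.08. Mir199a-2 and Mir669e stood just above Mir103-2, and mmu-mir-3535 and Mir182 just below. Mir205 and Mir190b stood just above Mir33, and Mir6900 and Mir452 just below, with Mir452 differing from it by 0.13. With 2 libraries such likeness is one of level only.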

How the data were processed

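MicroRNA-seq libraries of 2 hearts (1 group) were used. Per the file headers, the deposited tables hold raw counts of reads per gene on mm10 with GENCODE M21, not normalized. For aligner and counter, the sources used here give no name. The gene-strand column was used, and symbols and positions of all 2202 IDs came from M21. The category rows (unmapped 16.9% and 12.2%, outside features 4.71% and 4.89%, multimapping as in the results, for replicates 1 and 2) were left out of library sizes.

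Levels are CPM over named genes, with SD and exact Clopper-Pearson 95% intervals. Ratios are replicate 1 over replicate 2, with TMM factors from edgeR 4.0.16 (R 4.3.3), a prior count of 0.5 and an exact binomial test at an adjusted p of 0.05. The test was tried on simulated counts without variation between animals, which it assumes itself. That trial cannot show how the test behaves where animals vary. Intervals cover counting error only. Sequences came from RefSeq tables, which matched all 5 members. Python 3.11.15, numpy 2.4.6, scipy 1.17.1 and pandas 2.3.3 were used.

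The members, lists, pairs and tests were chosen with earlier results of these data known. Named genes were the members, the genes of the pairs, list genes at 2000 CPM or more, the 4 genes nearest in level to each detected member, and the marker genes. Genes named for the direction of their ratio in the miR-15/miR-107 group, and Mir758, were named after their values were seen. Alternatives were the unstranded column, total counts, DESeq2 1.42.0 size factors, other minimums, another prior count, all reads as denominator, leaving out Mir378a and leaving out each replicate.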

Additional observations from a re-analysis of the deposited data

Results flagged for a closer look

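Reads placed at more than 1 position lie outside the gene counts, and their number alone says nothing of these genes. There were 4193785 in replicate 1 and 3872896 in replicate 2, or 46.8% and 43.2% of the mapped reads. The deposited tables do not say which of them came from miR-103-3p, whose 23 nt occur in both Mir103 genes.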

How the results depend on the processing

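Levels of the members moved with the denominator, by its construction. List shares moved also through the genes that lose their reads without strand, as given in the results. With the unstranded column the mean CPM was 29.9 for Mir103-2, 8.85 for Mir33 and 835 for Mir210. Over all reads it was 8.86 for Mir103-2, 1254 for Mir107, 2.64 for Mir33 and 248 for Mir210. Without Mir378a in the denominator it was 24.9 for Mir103-2 and 692 for Mir210. The log2 ratio of Mir210 between the hearts was -0.12 with DESeq2 size factors and then passed the test. No other member changed its call or direction under the 4 alternatives for that ratio. One of these, the other prior count, does not enter the test and could not change a call. The mean log2 ratio of Mir107 over Mir195a was -0.19, with -1.89 without replicate 1 and 1.504 without replicate 2, so its direction rests on the heart. Genes past the test numbered 186 to 213 under 5 alternatives, against 207, and detected members 5 at 1 count or more and 3 at 50 or more, against 4. Apart from leaving out replicates, 52 of 71 values were kept (within 1 SD, or on the same side of the threshold, or within 1.5 times for counts of genes). Some of these could not have changed, so the tally is no measure of stability. Calls with another prior count were fixed, as were ratios between members in the unstranded column, where their counts are the same. The SD of 2 hearts is wide for genes that differ between them, so a kept level can still shift. Mir103-1 was 1.41 CPM over all reads against 3.47, and Mir107 4264 CPM with the unstranded column against 3033. Both count as kept. Leaving out 1 of 2 hearts cannot move a mean by more than 1 SD and says nothing of stability. The ratio of Mir33 over Mir378a could not be had without strand, where Mir378a has 0 counts. No paired analysis was possible because the hearts form a single group. Depth limits Mir103-1 and Mir33, at 6 to 33 counts a library.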
